A study of Mus musculus with 8 samples.

Results

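The genes examined were the 8 MAP kinase phosphatase genes Dusp1, Dusp2, Dusp4, Dusp5, Dusp6, Dusp7, Dusp10 and Dusp16, taken by symbol. All 8 were present among the 14042 genes measured. RNA sequencing had been run on 8 libraries of mouse CD4 cells, with 4 groups of 2. TFH KO libraries held donor cells of C5aR1-/- genotype, and TFH WT libraries donor cells of WT genotype, recovered from the spleens of (bxd)F1 mice on day 7 after injection of CD8-depleted spleen cells and sorted on CXCR5 and high PD1, which mark T follicular helper (TFH) cells. Naive KO (C5aR1-/-) and naive WT libraries held CD4 cells sorted as CD62L high and CD44 low, and their labels name no injection. C5aR1 is the receptor of C5a, a complement fragment, and the series title names chronic graft-versus-host disease as the setting. Strain, sex, age and number of the donors were not given in the labels, nor whether animals were pooled. The TFH-labelled and naive-labelled groups differ in cell sort and in transfer together, and these cannot be told apart.

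MAP kinases (ERK, JNK and p38) are switched on when an upstream kinase adds phosphate to a threonine and a neighbouring tyrosine of their activation loop. MAP kinase phosphatases remove both phosphates and so switch the kinases off. Several of their genes are themselves induced by MAP kinase signalling, which makes them negative feedback regulators. In T cells they are known for limiting signals that follow engagement of the antigen receptor. DUSP1, DUSP2, DUSP4 and DUSP5 are nuclear enzymes, DUSP6 and DUSP7 are cytoplasmic and prefer ERK, and DUSP10 and DUSP16 act mainly on JNK and p38.

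Promoter sequence is shown for Dusp1, Dusp5 and Dusp10, 3 of the 4 members with the largest rises in TFH-labelled over naive-labelled libraries, as context for genes that moved together. RefSeq promoters on GRCm38.p6 were held for 7 of the 8 members. For Dusp7 and Dusp16 the promoter start lies inside the gene span given below. Their windows, chr9:106368382-106368631 and chr6:134792629-134792878, therefore overlap that span. The 250 bases upstream of each start were searched on both strands for the cyclic AMP response element (CRE) TGACGTCA and its core TGACG, the AP-1 site TGANTCA, the serum response CArG box, the NF-kB site, the EGR site GCGNGGGCG, the ETS site CCGGAAG and the TATA box TATAAA. Bases from -200 to -51 relative to the start are printed 5′ to 3′ on the strand of the gene, with matches in capitals. The stretches are chr17:26508523-26508672 on the minus strand for Dusp1, chr19:53528945-53529094 on the plus strand for Dusp5 and chr1:184034181-184034330 on the plus strand for Dusp10.
Dusp1: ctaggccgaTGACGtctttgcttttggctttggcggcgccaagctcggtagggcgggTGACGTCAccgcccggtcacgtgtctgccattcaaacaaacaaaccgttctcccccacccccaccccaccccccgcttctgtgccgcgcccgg
Dusp5: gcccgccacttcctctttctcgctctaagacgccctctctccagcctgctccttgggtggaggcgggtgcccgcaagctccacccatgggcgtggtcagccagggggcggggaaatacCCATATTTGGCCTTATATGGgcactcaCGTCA
Dusp10: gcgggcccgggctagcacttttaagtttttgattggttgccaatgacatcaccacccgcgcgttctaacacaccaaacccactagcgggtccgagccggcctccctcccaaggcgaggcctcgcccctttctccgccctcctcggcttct

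The Dusp1 stretch held a full CRE whose first base lay at -143, and a CRE core at -191. A full CRE was present in 1.55% of the 32851 promoter windows of the same 250 bases, and its core, which the full CRE contains on both strands, in 17.8%. The Dusp5 stretch held 2 adjoining CArG boxes, CCATATTTGG and CCTTATATGG, starting at -82 and -72, and a reverse CRE core at -55. A CArG box was present in 1.47% of all windows. Dusp10 had no match to any of the motifs in its window, and nor did Dusp6 or Dusp7. Dusp2 held 1 EGR site, present in 4.7% of all windows, and Dusp16 held 1 EGR site and 1 CRE core. These are matches of letters, not measured binding sites, and a window with no match says only that these letters were not in it.

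The libraries did not follow their labels in every marker. Cxcr5, the transcript of the sorted receptor, had a log2 level of 10.85 to 11.56 in TFH-labelled and 11.56 to 12.45 in naive-labelled libraries, whereas Il21, the typical TFH cytokine, had 9.58 to 10.40 in TFH-labelled and 7.31 to 8.19 in naive-labelled libraries. Pdcd1, which encodes the sorted PD1, had 11.88 to 12.85 in TFH-labelled and 10.80 to 11.97 in naive-labelled libraries. Cd44, the transcript of the marker sorted as low in naive cells, had 11.97 to 12.11 in TFH-labelled and 12.53 to 13.04 in naive-labelled libraries. The summed level of 10 TFH markers was 14.56 to 15.19 in TFH-labelled and 14.07 to 14.71 in naive-labelled libraries, so that the ranges overlapped. Taken singly, 8 of the 10 had a higher mean in TFH-labelled libraries in each genotype, with median changes of 0.63 in KO and 1.09 in WT. Of them 4 in KO and 5 in WT were called higher and none lower, against 9.12% and 12.6% of all genes called higher. The 12 CD4 T cell identity markers summed to 18.19 to 18.33 in TFH-labelled and 18.41 to 18.50 in naive-labelled libraries. All 14 B cell markers were measured and summed to 11.54 and 15.39 in TFH KO, 11.94 and 13.92 in TFH WT, and 12.57 to 13.93 in naive-labelled libraries. Of 14 myeloid markers 13 were measured, summing to 11.69 to 13.18 in TFH-labelled and 13.70 to 15.37 in naive-labelled libraries, and 12 NK and CD8 T cell markers summed to 12.48 to 13.32 in TFH-labelled and 13.68 to 14.02 in naive-labelled libraries. No marker was listed at 0, and the lowest, S100a9, stood at 3.33 in TFH WT replicate 1. With the median log2 level of the B cell markers, not their sum, as a covariate, 7 members were called in KO and 8 in WT. Without both second TFH libraries the median member changed by 2.07 in KO and 2.05 in WT. No fit was adjusted for myeloid or for NK and CD8 T cell markers, whose sums did not overlap between the labels, and their part in the results was not tested. Naive KO replicate 1 stood apart with Xist at 14.61, against 4.44 to 5.56 in the other libraries. The Y chromosome gene Ddx3y stood at 5.67 in it, against 12.54 to 13.16 in the others. By these transcripts it came from female cells and the others from male cells, so the naive KO group mixed the sexes. The part of sex in the results was not tested. Without this library the median member changed by 2.03 in KO. C5ar1 was not analysed here, so genotype was not checked on the deleted gene, and no member lies on its chromosome 7. In bulk samples, fewer cells of a type and less RNA per cell cannot be told apart.

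In both genotypes TFH-labelled libraries held between 5.47 and 8.83 times the naive-labelled level of 4 of the 8 genes, Dusp1, Dusp4, Dusp5 and Dusp10, smaller rises of Dusp2 and Dusp6, and less Dusp7. Between TFH KO and naive KO libraries 6 of the 8 genes rose, 1 fell and 1 was not called, while 9.12% of all genes were called higher and 10.4% lower. Between TFH WT and naive WT libraries 7 rose and 1 fell, while 12.6% of all genes were called higher and 13.7% lower. TFH-labelled and naive-labelled values did not overlap for 7 members in KO, against 58.2% of all genes, and for 8 members in WT, against 65.0%. The median member changed by 2.1 in KO and 2.0 in WT on the log2 scale, against -0.01 and 0.01 for all genes. A gene was called at a Benjamini-Hochberg adjusted p below 0.05 in a limma model over all genes. Changes are log2 differences of group means ± standard error (SE), with 2 libraries per group. All levels are the deposited log2 values, which are compared between libraries only and not between genes.

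**Figure D1:**
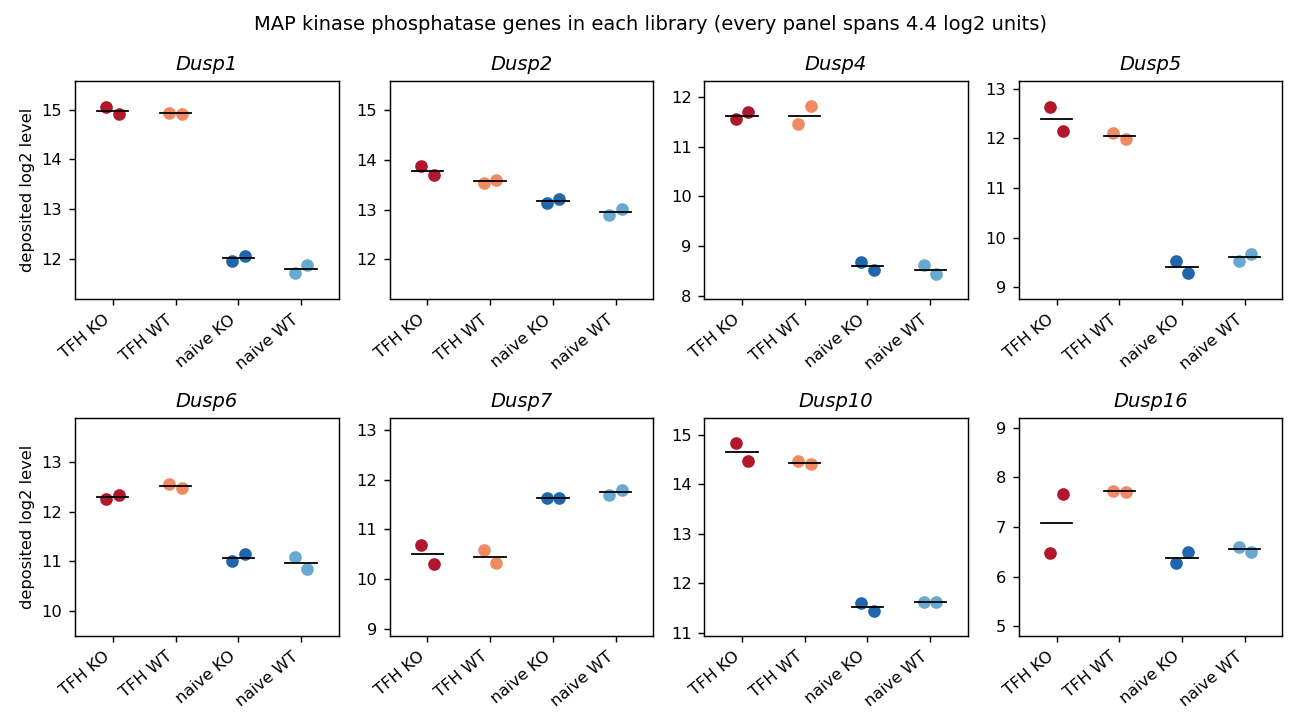
Deposited log2 level (vertical axis) of each MAP kinase phosphatase gene in the 2 libraries of each group (points) with the group mean (bar). Each panel has its own range of equal height. For Dusp1, Dusp4, Dusp5 and Dusp10 the TFH-labelled libraries lie far above the naive-labelled ones, and for Dusp7 they lie below.

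Dusp1 (chr17:26505591-26508472), a nuclear enzyme that acts on ERK, JNK and p38, is a classical early gene of stress and growth factor responses. Its level was 15.05 and 14.91 in TFH KO, 14.94 and 14.92 in TFH WT, 11.96 and 12.06 in naive KO, and 11.71 and 11.87 in naive WT libraries. Both TFH-labelled groups lay above both naive-labelled groups with no overlap, and the TFH KO and TFH WT values overlapped. The rise was 2.97 ± 0.11 in KO (adjusted p = 1.09e-08), a 7.83-fold difference with a 95% interval of 6.67 to 9.19. In WT it was 3.14 ± 0.11 (adjusted p = 8.38e-09), or 8.83-fold with an interval of 7.53 to 10.4. No more than 0.399% of all genes in KO and 0.335% in WT had a larger rise.

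Dusp4 (chr8:34807610-34819894), a nuclear phosphatase for ERK and JNK, stood at 11.55 and 11.70 in TFH KO, 11.45 and 11.82 in TFH WT, 8.67 and 8.52 in naive KO, and 8.62 and 8.43 in naive WT libraries. Both libraries of each TFH-labelled group lay above all 4 naive-labelled libraries. The rise was 3.03 ± 0.15 in KO (adjusted p = 1.32e-07) and 3.11 ± 0.15 in WT (adjusted p = 1.31e-07), which is 8.16-fold and 8.63-fold.

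Dusp5 (chr19:53529145-53541809), a nuclear phosphatase specific for ERK, was 12.63 and 12.14 in TFH KO, 12.11 and 11.99 in TFH WT, 9.52 and 9.28 in naive KO, and 9.53 and 9.66 in naive WT libraries. TFH KO replicate 1 was the highest of the 8 libraries, and the labels did not overlap. The rise was 2.98 ± 0.16 in KO (adjusted p = 4.22e-07) and 2.45 ± 0.16 in WT (adjusted p = 2.33e-06). The difference between these rises, the interaction of genotype and label, was 0.53 ± 0.22 with an unadjusted p of 0.0343 and an adjusted p of 0.997, and was not called.

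Dusp2 (chr2:127336159-127338377), also called PAC-1 and first known from activated T cells, rose least of the nuclear members. Its level was 13.88 and 13.69 in TFH KO, 13.53 and 13.60 in TFH WT, 13.14 and 13.22 in naive KO, and 12.90 and 13.02 in naive WT libraries. The 4 groups did not overlap, in the order TFH KO, TFH WT, naive KO, naive WT. The rise was 0.60 ± 0.11 in KO (adjusted p = 0.00239) and 0.61 ± 0.11 in WT (adjusted p = 0.00169), 1.52-fold in each.

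The cytoplasmic, ERK-directed pair moved in opposite directions. Dusp6 (chr10:99263231-99267489) was 12.26 and 12.34 in TFH KO, 12.55 and 12.47 in TFH WT, 11 and 11.15 in naive KO, and 11.09 and 10.84 in naive WT libraries. It rose by 1.22 ± 0.11 in KO (adjusted p = 2.7e-05) and by 1.55 ± 0.11 in WT (adjusted p = 3.64e-06). Dusp7 (chr9:106368560-106375724) was 10.69 and 10.30 in TFH KO, 10.58 and 10.32 in TFH WT, 11.64 in each naive KO library, and 11.70 and 11.80 in naive WT libraries. It was the only member to fall, with a change of -1.15 ± 0.14 in KO (adjusted p = 0.000199) and of -1.30 ± 0.14 in WT (adjusted p = 6.78e-05). TFH-labelled libraries thus held 0.452 times the naive-labelled level of Dusp7 in KO and 0.406 times in WT.

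Of the JNK and p38 phosphatases, Dusp10 (chr1:184034381-184075636) was 14.84 and 14.46 in TFH KO, 14.47 and 14.40 in TFH WT, 11.60 and 11.44 in naive KO, and 11.62 and 11.63 in naive WT libraries. All TFH-labelled libraries lay far above all naive-labelled ones. The rise was 3.13 ± 0.13 in KO (adjusted p = 2.89e-08) and 2.81 ± 0.13 in WT (adjusted p = 9.57e-08), or 8.74-fold and 7.00-fold. Dusp16 (chr6:134715468-134807063) had the lowest deposited values, 6.48 and 7.66 in TFH KO, 7.73 and 7.70 in TFH WT, 6.27 and 6.49 in naive KO, and 6.60 and 6.49 in naive WT libraries. TFH KO replicate 1 lay within the naive-labelled range, apart from the other 3 TFH-labelled libraries.

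Dusp16 rose by 1.17 ± 0.33 in WT (adjusted p = 0.0238) and differed by 0.69 ± 0.33 in KO (adjusted p = 0.178), where it was not called. The difference between these changes was -0.48 ± 0.47 (adjusted p = 0.997). Without TFH KO replicate 1 the change in KO was 1.28 and was called (adjusted p = 0.01). The WT call was lost without any 1 of the 4 WT libraries, at changes of 1.11 to 1.23 and adjusted p-values of 0.0847 to 0.115. TFH KO replicate 1 also had the lowest summed TFH marker level of the TFH-labelled libraries, 14.56, and the part of this in the Dusp16 result was not tested. The other 7 members were called in both genotypes under all 17 alternatives tried.

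**Figure D2:**
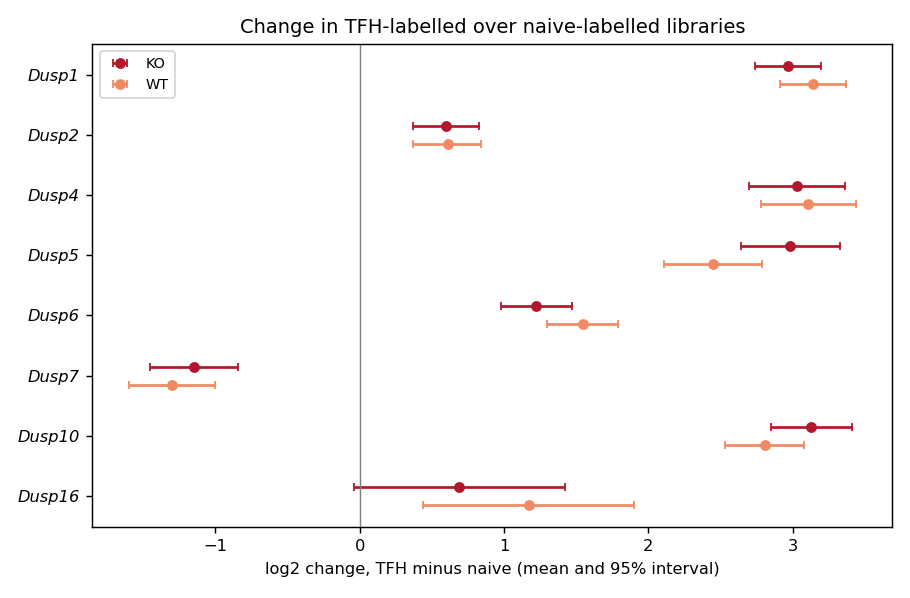
Log2 change of each member in TFH-labelled over naive-labelled libraries (horizontal axis), in KO (dark red) and WT (orange), with 95% intervals from the limma fit over all genes. Dusp1, Dusp4, Dusp5 and Dusp10 lie between 2.45 and 3.14, Dusp7 lies below 0 and only the interval of Dusp16 in KO reaches 0.

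A called rise of 1 or more was seen for 5 of the 8 members in KO and 6 of 8 in WT, and for 2.86% and 4.01% of all genes. Dusp10 ranked 44th of 14042 genes by rise in KO, and Dusp1 ranked 48th in WT. The 95% intervals of Dusp1, Dusp4 and Dusp10 overlapped one another within each genotype. In KO that of Dusp5, 2.64 to 3.33, overlapped them too. Differences between members were not tested, so the order among these genes was not resolved.

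**Figure D3:**
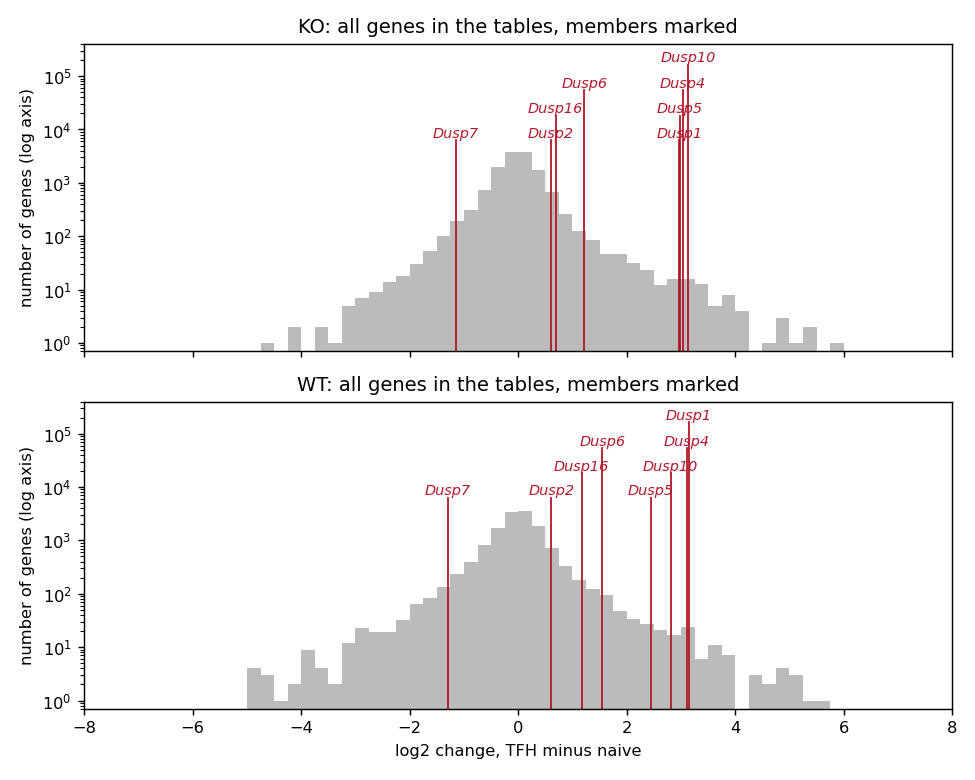
Number of genes (log axis) by log2 change in TFH-labelled over naive-labelled libraries in bins of 0.25, for all genes, in KO (top) and WT (bottom). Red lines mark the members, 4 of which lie at 2.45 or above in each genotype.

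Any effect of C5aR1 loss was read from KO against WT libraries of the same label. In TFH-labelled libraries, cell type markers differed too. TFH markers summed to 14.56 and 14.92 in TFH KO and 15.19 and 15.04 in TFH WT. None of the 10 had a higher mean in TFH KO (median difference -0.40). All 12 NK and CD8 T cell, all 13 myeloid and 13 of 14 B cell markers had, with medians of 0.61, 0.30 and 0.70. None of these markers was called. The part of TFH, myeloid, NK and CD8 T cell markers was not tested. No member was called by limma in TFH-labelled libraries, and none had an unadjusted p below 0.05. Among all genes none was called (0.0%) and 506 had an unadjusted p below 0.05 (3.6%). The largest difference was that of Dusp16, -0.65 ± 0.33, for which TFH KO libraries held 0.639 times the TFH WT level with a 95% interval of 0.385 to 1.06. Without TFH KO replicate 1 the difference was -0.06. Dusp5 was 1.27-fold higher in TFH KO, with an interval of 0.998 to 1.60, and Dusp2 and Dusp10 were each 1.16-fold higher, with intervals of 0.989 to 1.37 and 0.957 to 1.41.

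Dusp6 in TFH KO libraries was 0.865 times its TFH WT level, with an interval of 0.729 to 1.03. Dusp1, Dusp4 and Dusp7 were 1.04, 0.995 and 1.03 times the TFH WT level, with intervals of 0.883 to 1.22, 0.794 to 1.25 and 0.836 to 1.27. KO and WT values did not overlap for 4 of the 8 members, Dusp2 and Dusp5 higher in KO (of all genes, 16.5%) and Dusp6 and Dusp16 lower (of all genes, 16.5%).

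In naive-labelled libraries no member was called either, and none had an unadjusted p below 0.05, while 10 genes in all were called by limma (0.0712%) and 355 had such a p (2.53%). Dusp1 and Dusp2 were each 1.17-fold higher in naive KO libraries, with intervals of 0.997 to 1.37 and 0.993 to 1.37. Dusp5 was 0.876 times its naive WT level (0.691 to 1.11), and the other 5 members had ratios between 0.892 and 1.08. Naive KO and naive WT values did not overlap for 6 of the 8 members, 2 higher in KO, against 15.2% of all genes, and 4 lower, against 11.2%. These comparisons use the same libraries as those between labels, and naive KO replicate 1 differed from the other libraries in its sex transcripts. The interaction was called for none of the 8 members and for 2 genes in all (0.0142%), and Dusp5 was the only member with an unadjusted p below 0.05, among 614 genes (4.37%).

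**Figure D4:**
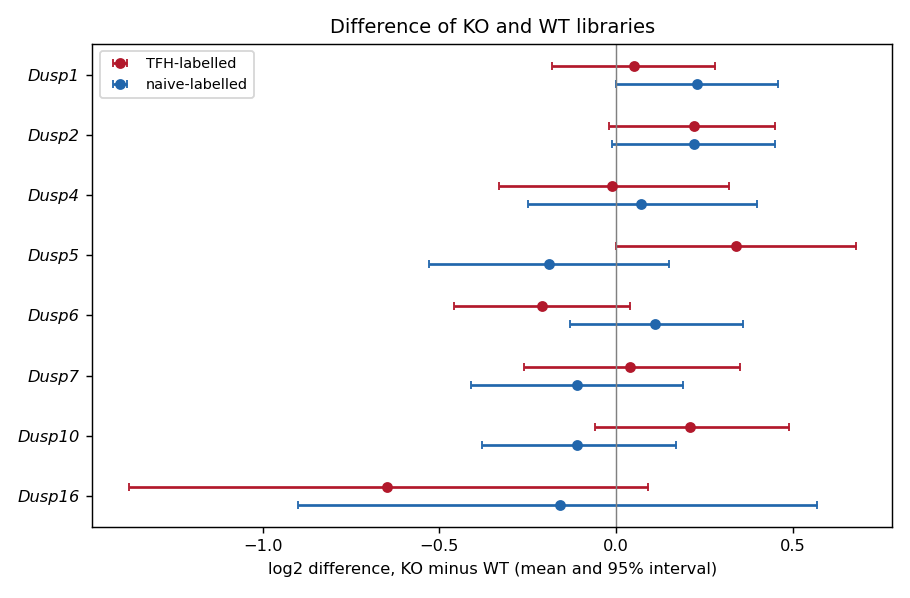
Log2 difference of KO minus WT libraries (horizontal axis) for each member, in TFH-labelled (red) and naive-labelled (blue) libraries, with 95% intervals. No interval lies wholly on either side of 0, and the widest are those of Dusp16.

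Lists of genes around the phosphatases were counted in the same fit, in which the median of all genes was near 0. In that fit 9.12% of all genes in KO and 12.6% in WT were called higher, and 10.4% and 13.7% lower. Centring each library on the median of the 12 CD4 T cell identity markers moved the median of all genes to 0.45 in KO and 0.43 in WT. It turned most small falls of the kinase lists into no change or a rise, so directions in these lists are relative to the median gene. The 12 markers themselves had a median change of -0.17 in KO and -0.05 in WT before centring. After it this was 0.29 and 0.37, with 5 and 8 of 12 called higher and 1 lower in each. The centring thus did not hold these markers level between labels, and it serves only as another reference. After that centring 45.8% of all genes in KO and 44.5% in WT were called higher, and the centred counts below are to be read against those shares. Of 19 genes of the RAS-ERK cascade, 1 rose and 4 fell in KO and 2 rose and 3 fell in WT, with medians of -0.11 and 0.02, whereas 9 of 19 rose and none fell in each genotype after that centring, near the share of all genes. Mapk3, which encodes ERK1, lay between 11.01 and 11.11 in TFH-labelled and between 11.52 and 11.77 in naive-labelled libraries. It changed by -0.67 ± 0.11 in KO (adjusted p = 0.00127) and by -0.53 ± 0.11 in WT (adjusted p = 0.00374), a call that ended in 1 of 17 alternatives in KO and in 2 of 17 in WT. Nras, a RAS gene, changed by -0.48 ± 0.10 in KO and -0.42 ± 0.10 in WT but stood at -0.02 and 0.00 when centred, and its call ended in 2 of 17 alternatives in KO and 4 of 17 in WT. Ksr1, a scaffold of the cascade, was called in WT (0.55 ± 0.15), a call that ended in 4 of 17 alternatives, and not in KO (0.38 ± 0.15), where 1 of 17 called it, and the interaction was not called.

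Of 26 measured genes of the JNK and p38 cascades, 4 rose and none fell in KO, and 6 rose and 1 fell in WT, with medians of 0.20 and 0.03, and 20 of 26 rose in KO and 13 of 26 in WT after centring, against 45.8% and 44.5% of all genes. The genes called in KO were Gadd45a, Gadd45b and Gadd45g, stress-induced activators of the kinase MEKK4, and Map3k8, which encodes the ERK-activating kinase TPL2. Gadd45b stood at 12.43 and 12.75 in TFH KO, 12.58 and 12.79 in TFH WT, 9.46 and 10.00 in naive KO, and 9.66 and 9.55 in naive WT libraries, with no overlap between the labels. Its rise was 2.86 ± 0.18 in KO (adjusted p = 1.46e-05) and 3.08 ± 0.18 in WT (adjusted p = 8.83e-06). Gadd45a rose by 2.2 ± 0.19 in KO and 2.01 ± 0.19 in WT, and Gadd45g by 2.49 ± 0.23 in KO and 3.09 ± 0.23 in WT. Map3k8 rose by 1.09 ± 0.19 in KO (adjusted p = 0.003), a call that ended in 1 of 17 alternatives, and by 1.41 ± 0.19 in WT (adjusted p = 0.000517).

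Of 5 measured Sprouty, Spred and Errfi1 genes, 3 rose and none fell in each genotype, with medians of 1.09 in KO and 0.82 in WT. After centring 5 of 5 rose in KO and 4 of 5 in WT, against 45.8% and 44.5% of all genes. Spry1, an inhibitor of RAS activation, was 11.38 and 11.28 in TFH KO, 11.69 and 11.51 in TFH WT, 9.33 and 9.72 in naive KO, and 9.70 and 9.21 in naive WT libraries. It rose by 1.81 ± 0.18 in KO (adjusted p = 9.19e-05) and by 2.15 ± 0.18 in WT (adjusted p = 2.46e-05). Errfi1, an inhibitor of EGF receptor family kinases, rose by 1.09 ± 0.17 in KO (adjusted p = 0.0012) and by 0.82 ± 0.17 in WT (adjusted p = 0.00469), where the call ended in 2 of 17 alternatives. Spred1 was called in both genotypes, but its call ended in 10 of 17 alternatives in KO and in 4 of 17 in WT.

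Of 12 measured genes of other dual-specificity phosphatases, 2 rose and 1 fell in each genotype, with medians of -0.09 in KO and 0.05 in WT, against 4 and 7 of 12 that rose after centring (45.8% and 44.5% of all genes). Dusp14, an atypical phosphatase without a MAP kinase binding domain, rose by 1.48 ± 0.40 in KO (adjusted p = 0.0365), a call that ended in 7 of 17 alternatives, and by 2.36 ± 0.40 in WT (adjusted p = 0.00404), where it ended in 1 of 17. Dusp23, also atypical, changed by -1.04 ± 0.20 in KO (adjusted p = 0.00389) and by -0.79 ± 0.20 in WT (adjusted p = 0.0127), where the call ended in 3 of 17. Ssh3, a cofilin phosphatase gene, rose by 0.40 ± 0.13 in KO, a call that ended in 11 of 17, and by 0.39 ± 0.13 in WT, where it ended in 5 of 17. Of 8 other phosphatases of MAP kinases, none rose, 2 fell in KO and 1 fell in WT, against 4 and 3 of 8 that rose after centring. Ppm1b changed by -0.46 ± 0.11 in KO and -0.52 ± 0.11 in WT, and Ppp2ca, the catalytic subunit gene of PP2A, by -0.39 ± 0.10 in KO, but in KO they stood at 0.00 and 0.08 when centred. The call of Ppm1b ended in 4 of 17 alternatives in KO and 1 of 17 in WT, and that of Ppp2ca in 6 of 17.

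Of 19 genes that couple the T cell receptor to RAS, 1 rose and 1 fell in KO and 2 rose and 3 fell in WT, whereas 14 of 19 rose in KO and 11 of 19 in WT after centring, against 45.8% and 44.5% of all genes. Dgkz, a brake on diacylglycerol, rose by 0.33 ± 0.09 in KO and 0.31 ± 0.09 in WT, and Zap70 (0.46 ± 0.13) rose and Rasa3 (-0.50 ± 0.12) fell in WT. These calls ended in 7 of 17 alternatives for Dgkz in KO, in 6 of 17 for Dgkz and for Zap70 in WT, and in 4 of 17 for Rasa3 in WT. Of 10 kinases downstream of MAP kinases, 1 rose and 3 fell in KO and 1 rose and 2 fell in WT, against 5 of 10 that rose in each genotype after centring, near the share of all genes. Rps6ka3, which encodes the ERK-activated kinase RSK2, changed by -0.84 ± 0.11 in KO (adjusted p = 0.000352), a call that ended in 1 of 17 alternatives, and by -0.91 ± 0.11 in WT (adjusted p = 0.000174). Rps6ka1 changed by -0.51 ± 0.10 in KO and -0.53 ± 0.10 in WT, calls that ended in 3 of 17 and 1 of 17 alternatives, and Rps6ka5 fell in KO (-0.61 ± 0.18), a call that ended in 7 of 17. The 1 gene that rose was Mknk1 in KO (0.47 ± 0.11), a call that ended in 3 of 17 alternatives, and Mapkapk2 in WT (0.56 ± 0.13), where it ended in 2 of 17.

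Of 27 measured transcription factor genes that are targets or substrates of MAP kinases, 13 rose and none fell in KO, and 14 rose and 1 fell in WT, with medians of 0.77 and 0.72. After centring 18 of 27 rose in each genotype, against 45.8% of all genes in KO and 44.5% in WT. Fosl2, an AP-1 subunit gene, rose by 2.87 ± 0.14 in KO (adjusted p = 9.55e-08) and by 2.26 ± 0.14 in WT (adjusted p = 8.68e-07). Nr4a1, an orphan nuclear receptor gene induced by antigen receptor signals, rose by 2.66 ± 0.10 in KO (adjusted p = 2.02e-08) and by 2.45 ± 0.10 in WT (adjusted p = 5.13e-08). Nr4a2, of the same family, rose by 4.09 ± 0.24 in KO and 3.67 ± 0.24 in WT, and Junb, an AP-1 subunit gene, by 2.06 ± 0.12 and 2.02 ± 0.12. Egr1, Egr2 and Egr3, chosen after their values were seen, are classical targets of ERK and of the antigen receptor. Egr1 rose by 0.88 ± 0.20 in KO (adjusted p = 0.0185) and by 0.87 ± 0.20 in WT (adjusted p = 0.0149). Egr2 stood at 0.08 ± 0.26 in KO and 0.50 ± 0.26 in WT and Egr3 at -0.19 ± 0.18 and -0.32 ± 0.18, and neither was called.

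Of 18 other immediate early genes, which respond rapidly to stimulation or stress, 17 rose and none fell in each genotype, with medians of 2.45 in KO and 2.41 in WT. After centring 18 of 18 rose in KO and 17 of 18 in WT, against 45.8% and 44.5% of all genes. Tnfaip3, whose product restrains NF-kB, rose by 5.37 ± 0.11 in KO (adjusted p = 1.76e-10) and by 5.19 ± 0.11 in WT (adjusted p = 2.58e-10). Csrnp1, a transcription factor gene of the same class, rose by 2.66 ± 0.11 in KO (adjusted p = 2.89e-08) and by 2.41 ± 0.11 in WT (adjusted p = 9.57e-08). Maff rose by 5.81 ± 0.15 in KO and 5.4 ± 0.15 in WT, Klf4 by 4.85 ± 0.17 and 4.99 ± 0.17, and Cd69, an early activation marker, by 2.44 ± 0.10 and 2.48 ± 0.10. These genes were high in the same libraries as the phosphatase genes, and their part in the phosphatase result was not tested.

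**Figure D5:**
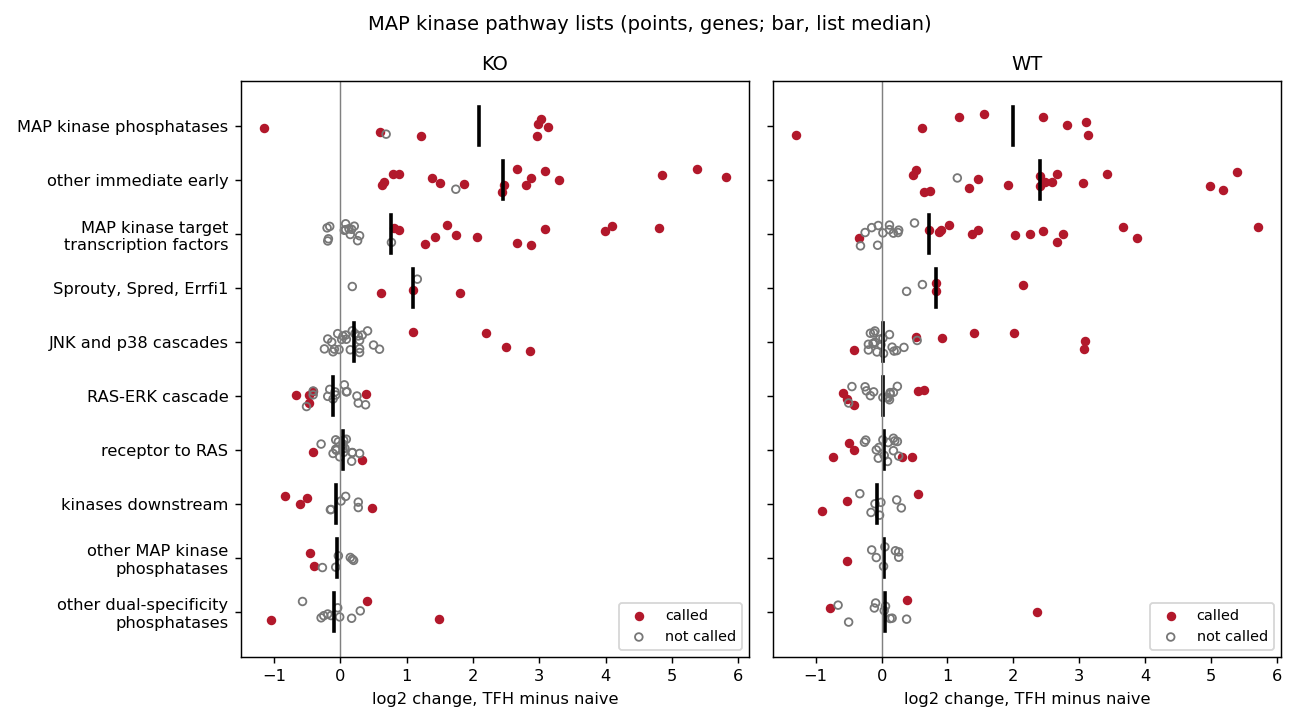
Log2 change in TFH-labelled over naive-labelled libraries (horizontal axis) of each measured gene (points) in lists of MAP kinase pathway genes (rows), in KO (left) and WT (right). Filled points were called at an adjusted p below 0.05 and bars are list medians, which lie near 0 for the kinase lists and at 2.0 to 2.45 for the phosphatases and the other immediate early genes.

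Genes with the profile closest to each member were sought among 10771 other genes, by the root mean square distance between mean-centred log2 values over the 8 libraries, which share the division by label. The distance between members was smallest for Dusp5 and Dusp10, at 0.14, and was 0.17 between Dusp1 and Dusp4 and between Dusp1 and Dusp10. Rgs2, a regulator of G protein signalling, was among the 3 closest genes to Dusp1, Dusp4 and Dusp10, at distances of 0.16, 0.16 and 0.10, as was H2-Q2, a class I histocompatibility gene, at 0.17, 0.18 and 0.13. Closest to Dusp5 were Csrnp1 at 0.15, Nr4a1 at 0.16 and the phosphatase gene Ptp4a1 at 0.16. Closest to Dusp6 were the chaperone gene Hsp90aa1 at 0.08, the calcineurin subunit gene Ppp3cc at 0.09 and the replication clamp gene Pcna at 0.10.

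Among the closest to Dusp16 were Npas4 at 0.15 and the cohesion gene Esco2 at 0.16. Esco2 stood at 7.94 and 8.93 in TFH KO, 8.91 and 9.20 in TFH WT, 7.68 and 7.97 in naive KO, and 7.76 and 7.55 in naive WT libraries. Its low value in TFH KO replicate 1 is part of the likeness by which it was chosen. Closest to Dusp2 were Tfb2m, Srsf5 and Mbip, each at 0.04, and closest to Dusp7 were Fam78a at 0.05, Rad1 at 0.07 and Yae1d1 at 0.07.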

How the data were processed

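RNA was sequenced as 51 bp single-end reads, per the labels' protocols. BWA and the build mm10 are named in the submitters' processing notes without versions. No counter, strand setting, annotation or normalization is given in the sources used here. Per library, the authors deposited log2 values running from 1.16 to 19.48. Above the lowest 1% of genes, sorted values differ from the median library by at most 0.03, as quantile normalization gives, which removes differences in overall spread. Depth is unknown, so no counting interval is given.

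All 14042 genes entered a single limma 3.58.1 fit (R 4.3.3) with a mean per group, 4 residual degrees of freedom, and trend and robust moderation. P-values were adjusted by Benjamini-Hochberg over all genes. No label ties the 2 libraries of a group to separate animals, so p-values measure only the spread between these samples, possibly technical. With 2 libraries a group, the smallest two-sided p of an exact permutation test is 0.33, so none is given. Members, lists and the trend setting were chosen with earlier results of these data known. Genes named besides the members were the up to 4 called genes of smallest p per list and genotype, and the 3 genes closest to each member among those with a highest group mean of at least 8. Egr1, Egr2 and Egr3 were added after their values were seen, and some genes that the rule names are not reported here. Alternatives changed the moderation, libraries, filter, pseudocount, centring and covariates, and library quality weights were chosen after seeing the data. Positions are RefSeq GRCm38.p6. Without known strand use, reads of genes overlapping Dusp6 or Dusp16, antisense to Dusp5, or overlapping longer GENCODE transcripts of Dusp1 and Dusp10 cannot be told apart. Of these, Ergic1 at Dusp1 changed by 0.03 ± 0.11 in KO and 0.24 ± 0.11 in WT and was not called, and 1700056E22Rik at Dusp10 rose by 1.52 ± 0.29 and 1.43 ± 0.29.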

Additional observations from a re-analysis of the deposited data

How the results depend on the processing

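The calls of 7 members between TFH-labelled and naive-labelled libraries held under all 17 alternatives in both genotypes. The exception was Dusp16, described with its values above, which a filter on low values (a highest group mean under 8) also removes. No paired analysis was possible because the labels give no replicate numbers, and those used here follow accession order and only name a library. The cause of the shifts below was not tested. Genes called between labels numbered 2744 in KO and 3694 in WT. Centred on T cell markers they numbered 6749 in KO (6433 higher, 316 lower) and 6787 in WT (6254 higher, 533 lower), and without both second TFH libraries 1225 and 2104. Leaving out each library in turn gave 1399 to 2683 in KO and 1991 to 3726 in WT. Between TFH KO and TFH WT, 1 gene was called with the compared groups only, and 0 to 2 leaving out each library. Between naive KO and naive WT, leaving out each library gave 7 to 17. For the interaction, 0 were called with no trend and 0 when centred, and 1 to 7 leaving out each library.

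Small differences that were not called changed sign. For TFH KO against TFH WT, Dusp4 was 0.03 when centred and 0.10 without both second TFH libraries. Leaving out each library gave -0.02 to 0.12 for Dusp1, -0.19 to 0.18 for Dusp4 and -0.15 to 0.24 for Dusp7. For naive KO against naive WT this gave -0.02 to 0.17 for Dusp4 and -0.01 to 0.24 for Dusp6. The interaction of Dusp2 was 0.03 when centred, 0.00 with the B cell covariate and 0.12 without both second TFH libraries, where that of Dusp4 was 0.03. Leaving out each library gave interactions of -0.10 to 0.09 for Dusp2, -0.26 to 0.10 for Dusp4, -0.04 to 0.35 for Dusp7 and -1.07 to 0.11 for Dusp16. Centring on T cell markers also turned small falls between labels. Zap70 in KO ran from -0.02 to 0.36 leaving out each library. In KO, Ppm1b when centred was 0.00, Ppp2ca 0.08 and Rasa3 0.18. In WT, Nras was 0.00, Ppp2ca 0.28 and Rps6ka5 0.09.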
